A study of Arabidopsis thaliana with 6 samples.

Results

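The data described are 3 RNA sequencing libraries of anthers from iron-supplied Arabidopsis thaliana plants, titled control 1 to 3, out of 6 libraries in the series. The 3 control libraries were chosen by their titles alone, and the 3 libraries of Fe-deficient anthers, from plants moved to medium with no added NaFe-EDTA, were not compared with them. All plants were wild-type Col-0, with no transgene or mutation named in the labels. The control plants grew for 10 days on agar plates and 18 days in hydroponic half-strength Hoagland medium, and then for a further 18 days with NaFe-EDTA, which the labels give as 50 mM (a unit that could not be checked here). The tissue is labelled as whole anthers, with a stage abbreviation that is not interpreted here. The labels do not say whether the libraries came from separate plants, so the spread among them may in part be technical. With 1 group there was no test: values are given per library, in the order control 1, 2 and 3, or as mean ± SD (n = 3), and describe these libraries.

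An anther holds the developing pollen, the tapetum around it and several wall layers. The tapetum is a short-lived secretory layer that feeds the microspores, makes the sporopollenin precursors of the pollen wall and, as it breaks down, leaves lipids and proteins on the grain as the pollen coat. The pollen grain later fills with transcripts for germination and tube growth. In whole anthers, fewer cells of a type and less RNA per cell cannot be told apart.

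Levels are in TPM, a relative transcript abundance adjusted for transcript length and library size, summed over the transcripts of each locus. The libraries held 18794855, 17474137 and 22710901 estimated counts. Of 33027 loci, 20850 had a mean of at least 1 TPM, 1715 of at least 100 TPM and 70 of at least 1000 TPM. Spread was read as the highest over the lowest TPM among the 3 libraries, over the 15507 loci with means of at least 5 TPM and 100 estimated counts. A locus was called variable when this ratio was at least 2 and steady when the highest library was at most 25% above the lowest. By these rules 1432 loci (9.23%) were variable and 7346 (47.4%) were steady, with a median ratio of 1.26. Without control 1 the variable loci numbered 451, without control 2 1149 and without control 3 760, and without control 1 the steady loci numbered 11195. Control 1 was the lowest library for 936 of the variable loci (6.04% of loci that passed) and control 3 the highest for 896 (5.78%). Control 2 was the lowest for 320 (2.06%) and the highest for 270 (1.74%). Control 1 was the highest for 266 (1.72%) and control 3 the lowest for 176 (1.13%). By the counts with 1 library left out, controls 1 and 3 differed at the most loci and controls 2 and 3 at the fewest. The 25 gene lists set beside these shares below were chosen with earlier results of these data known, so their counts are descriptions only.

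The organ label was checked against floral identity genes. The stamen and petal genes PI and AP3, MADS-box factors of the petal and stamen whorls, averaged 464 ± 53.5 TPM and 327 ± 34.5 TPM. AG, which sets stamen and carpel identity, had 164, 148 and 148 TPM, and SEP3, their partner, had 233, 245 and 247 TPM. All 7 identity genes passed the filter. Of these 5 were steady, against 47.4% of all loci, and 0 were variable, near the 9.23% of all loci. Of 8 carpel and ovule markers 2 passed, and their summed levels were 30.2, 48.1 and 34.9 TPM. HEC1, a carpel regulator, was at 0 in control 3. Markers of sepal, leaf guard cells and vasculature summed to 99.8, 95.1 and 217 TPM. Of these, AP1, which marks sepals and petals, had 10.8, 18.3 and 88.6 TPM, and SUC2, the sucrose loader of phloem companion cells, 11.8, 14.9 and 36.3 TPM. Both were highest in control 3, as were 4 of the 5 markers that passed, against 46.6% of all loci. KAT1, a potassium channel of guard cells, was not, with 42.1, 26.3 and 31.8 TPM, highest in control 1.

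The most abundant nuclear protein-coding loci came from the tapetum-derived pollen coat, tapetal lipid transfer proteins, stress and metal-binding proteins, pollen wall proteins and photosynthesis. GRP19, a small oleosin-like glycine-rich protein of the pollen coat, had 10198, 9584 and 9934 TPM and a spread of 1.06-fold. It lies at chr5:2388225-2389249, minus strand (TAIR10.1). AT1G66850, a lipid transfer family protein, had 7445, 8966 and 7444 TPM, and LTP12, another lipid transfer protein, 5524, 4334 and 3538 TPM. ATA20, a tapetum-expressed glycine-rich protein, had 5145, 4100.4 and 3972 TPM and held the most estimated counts of any locus. LTP12 spread most of these 4 loci, by 1.56-fold.

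GRP7, an RNA-binding protein of the clock and cold response, had 2659.5, 5182 and 4493 TPM, and KIN2, a cold- and abscisic acid-induced hydrophilic protein, 3765, 5511 and 3055 TPM. The metallothioneins, small cysteine-rich proteins that bind copper and zinc, were also high: MT2A averaged 3531 ± 756 TPM and MT2B 1718 ± 229.6 TPM. AGP23, an arabinogalactan peptide of pollen, had 1403, 4653 and 3239 TPM. TSM1, a tapetal methyltransferase, averaged 1784 ± 363 TPM, and XTH3, of a family of enzymes that remodel xyloglucan in cell walls, 1724 ± 178 TPM. Of the plastid proteins encoded in the nucleus, RBCS1A, a Rubisco small subunit, averaged 2148 ± 667 TPM and the light-harvesting protein LHCB1.3 1696 ± 66.4 TPM. The late embryogenesis abundant family proteins AT5G53820 and AT5G38760 averaged 2844 ± 1203 TPM and 2205 ± 955 TPM, and the pectin lyase family protein AT3G07850 2143 ± 1082 TPM. These 3, like AGP23, were lowest in control 1.

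**Figure D1:**
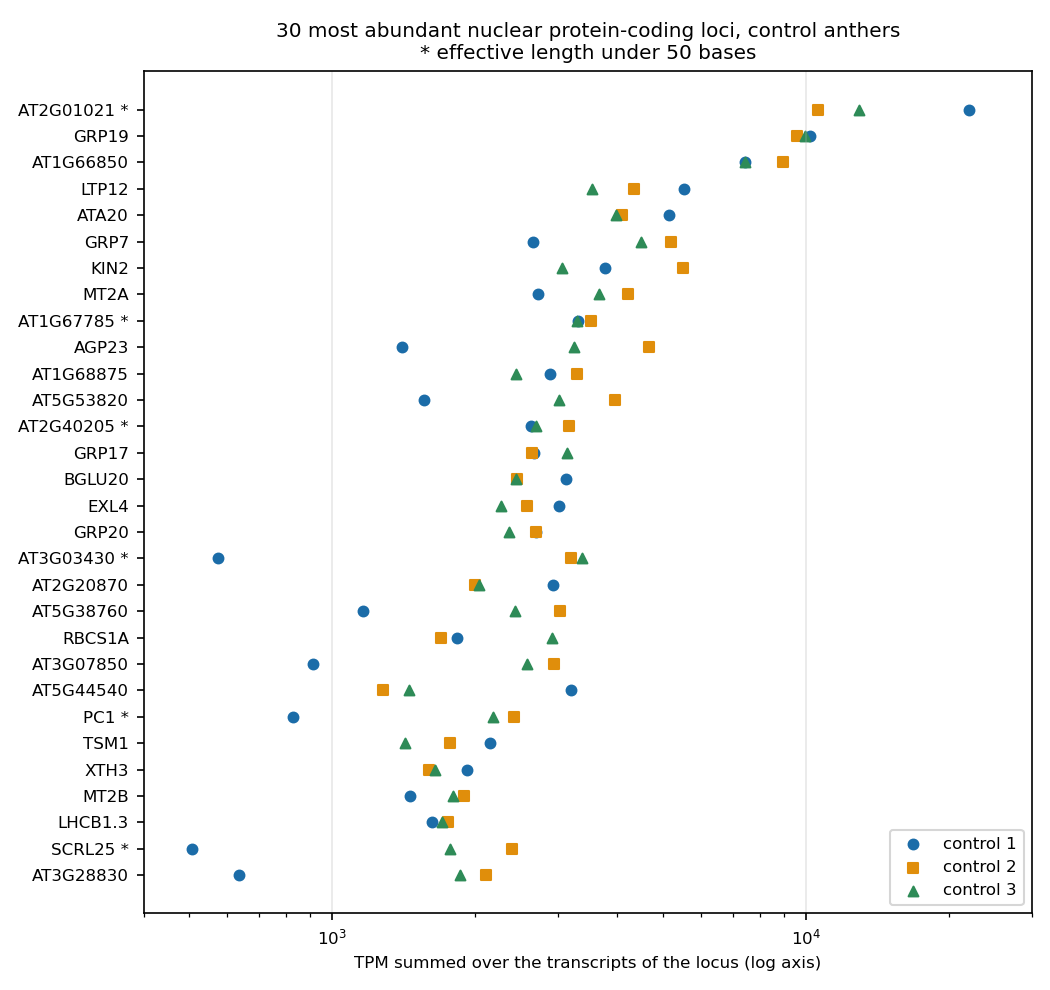
TPM in each control library (log axis, 1 marker per library) of the 30 nuclear protein-coding loci of highest mean. GRP19 lies between 9584 and 10198 TPM, while AGP23, AT5G53820 and AT3G28830 are lowest in control 1.

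Some of the highest TPM values rest on very short transcripts. AT2G01020, a 5.8S ribosomal RNA locus, was the highest locus of all, with 79504, 36434 and 20044 TPM, and AT2G01021, a short open reading frame annotated beside it, had 22052, 10599 and 12913 TPM. Both have effective lengths under 10 bases, so that few reads give a high TPM. Loci with an effective length under 50 bases held 13.3%, 10.4% and 8.52% of the TPM, which moves the TPM of every other locus the opposite way. They include AT3G03430, an EF-hand protein, and PC1, a pollen calcium-binding protein, whose TPM is uncertain for this reason. The 10 most abundant loci held 14.4%, 9.36% and 7.27% of the TPM, and a mean of 5.52% once such loci were left out. Plastid genome loci held between 0.144% and 0.193% of the TPM.

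The pollen coat genes were abundant and varied little. Its 13 loci, oleosin-like glycine-rich proteins, extracellular lipases (EXL) and a tapetal glucosidase, summed to 25524, 23938 and 24206 TPM, or 2.46 ± 0.0849% of the TPM. Of the 11 that passed the filter, 8 were steady, against 47.4% of all loci, and 0 were variable. Their median ratio was 1.14, against 1.26 over all loci.

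GRP14 had 1492, 1543 and 1472 TPM, a spread of 1.05-fold, and GRP17, a coat protein known for its part in pollen hydration on the stigma, 2669.9, 2648 and 3129.9 TPM. GRP20 averaged 2580.3 ± 193 TPM. The widest of the family was GRP16, with 659, 750.3 and 984 TPM, highest in control 3. GRP14, GRP16, GRP17, GRP18, GRP19 and GRP20 lie close together on chromosome 5, and GRP14 stands at chr5:2377703-2378829, minus strand. The lipase EXL4 had 3012, 2573 and 2268 TPM, and BGLU20, the glucosidase-like protein first described as ATA27, 3116, 2451 and 2448 TPM. Both were highest in control 1. EXL2 and EXL3 did not pass the filter, and EXL3 had 1.84, 2.28 and 7.74 TPM.

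Genes of the working tapetum were mostly highest in control 1. The regulator AMS, a bHLH factor that switches on pollen wall genes, had 271, 146 and 161 TPM. MYB80, a later tapetal MYB factor, had 25.2, 10.7 and 18.6 TPM, and TDF1, which acts upstream of AMS, 10.2, 3.54 and 4.85 TPM. DYT1, the earliest factor of this cascade, had 4.26, 0.276 and 0.342 TPM and did not pass the filter. Control 1 was the highest library for 15 of the 18 regulators that passed, against 32% of all loci, and 2 of them were variable, near the 9.23% of all loci, 0 without control 1 and 1 without control 2. MYB65, of a pair of MYB factors that act early in the tapetum, was steady, with 13.7, 13.0 and 13.1 TPM.

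Sporopollenin genes were also mostly highest in control 1. The list of wall synthesis and export genes summed to 5515, 3221 and 3504 TPM, and control 1 was highest for 14 of 16 members, against 32% of all loci. The polyketide synthase PKSB had 512, 187 and 267 TPM, and its partner PKSA 704, 358 and 531 TPM. TKPR1, a reductase of the polyketide products, had 640.1, 319 and 343 TPM, and MS2, a fatty acyl reductase, 586, 365 and 351 TPM. TEK, an AT-hook factor needed for the inner exine layer, spread most, with 86.3, 20.9 and 55.5 TPM, and NPU, a membrane protein of wall patterning, least, with 46.8, 52.5 and 54.1 TPM. In all 5 of 16 were variable, against 9.23% of all loci, 1 without control 1 and 0 without control 2. KNS4, a galactosyltransferase of the pollen wall, was the most abundant member with 609 ± 156 TPM.

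Phenolic genes of the tapetum were highest in control 1 as well. The spermidine conjugate and flavonoid list summed to 5521, 3927 and 3528 TPM, and all 12 members that passed were highest in control 1, against 32% of all loci. SHT, which attaches hydroxycinnamoyl groups to spermidine, had 962, 640.3 and 566 TPM, and CHS, the entry enzyme of flavonoids, 711, 437 and 401 TPM. TT7, a flavonoid hydroxylase, was the 1 variable member of 12, a share near the 9.23% of all loci, with 68.3, 24.3 and 35.5 TPM, and 0 were variable without control 1 or without control 2. DFR and LDOX, which lead to anthocyanins, were not above a mean of 5 TPM.

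Among lipid transfer proteins, A9, a classic tapetal gene, averaged 1024 ± 346 TPM, highest in control 1, and ATA7 had 1579, 1361 and 954 TPM. AT5G52160 spread most of this list, with 901, 547 and 328 TPM. Of the 6 members, 6 were lowest in control 3, against 22.6% of all loci. A6, a callase-like glucanase that frees microspores from their tetrads, had 872, 453 and 629 TPM, and QRT3, a polygalacturonase of the same step, 389, 271 and 370.4 TPM. CALS5, the callose synthase of the microspore wall, stood in the other order, with 15.4, 33.8 and 41.8 TPM. The tapetum-specific TAP35/TAP44 protein AT5G44540 had 3191, 1282 and 1452 TPM, likewise highest in control 1.

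Meiosis genes were low. The 33 members summed to 198, 168 and 157 TPM, and 13 passed the filter. Of these 4 were steady (against 47.4% of all loci) and 1 variable (near the 9.23% of all loci). Without control 1, 9 were steady and 0 variable, against 72.2% and 2.91% of all loci. Without control 3 the members numbered 10 and 0, against 68.9% and 4.9% of all loci. DMC1, the meiotic recombinase, averaged 18.8 ± 7.12 TPM, highest in control 1. TDM1, which acts at meiotic exit, was the variable member, with 10.4, 7.75 and 4.26 TPM. Cell division genes were of the same order of level, for example KNOLLE, the cytokinesis syntaxin, with 35.7, 30.9 and 31.9 TPM.

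Late pollen genes had the largest share of variable members among the 25 lists. The 47 members, genes of pollen maturation and tube growth, summed to 4261, 13515 and 12184 TPM, a spread of 3.17-fold. Of the 37 that passed, 28 were variable, against 9.23% of all loci, and 0 were steady. Control 1 was lowest for 33 of the 37, under each of the 5 scalings compared, against 39.1% of all loci in TPM. Some of them passed through their levels in controls 2 and 3 alone, which by itself favours a wide spread. Without control 1, 3 of the 37 were variable, against 2.91% of all loci, and 22 were steady, against 72.2%. Controls 2 and 3 were thus at most 25% apart for most members, though for a smaller share than over all loci.

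SKS13, a multicopper oxidase-like protein of pollen, had 538, 1451 and 1436 TPM. VGD1, a pectin methylesterase that pollen tubes need in the style, had 285, 1136 and 1083 TPM, and its neighbour VGDH1 0.927, 84.7 and 142 TPM. PPME1, another pectin methylesterase of the tube wall, had 149, 976 and 1049.6 TPM. The proton pumps AHA8 and AHA9 had 12.4, 57.8 and 78.2 TPM and 153, 542 and 471 TPM, and the receptor kinase PRK2, which signals at the tube tip, 0.741, 30.3 and 33.8 TPM. The tube integrity peptides RALF4 and RALF19 had 27.6, 163 and 131 TPM and 5.44, 52.7 and 62.0 TPM. All of these were lowest in control 1, and controls 2 and 3 lay close together for most of them.

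A few pollen genes were low throughout and highest in control 3. The tube wall extensin-like LRX9 had 3.16, 1.67 and 13.4 TPM and the calcium-dependent kinase CPK34 0.183, 0.157 and 3.81 TPM. The pollen tubulin TUB9 had the smallest spread of the list, with 77.6, 76.1 and 95.4 TPM, and the actin ACT11 had 57.9, 41.4 and 60.8 TPM. The sperm lineage list was lower in level and also lowest in control 1, with sums of 72.5, 152 and 171 TPM. MGH3, a histone H3 of the male germline, had 17.5, 54.8 and 50.8 TPM, and DUO1, the MYB factor that specifies that lineage, 7.28, 14.5 and 11.9 TPM. DUO3, which is expressed more widely, had 13.8, 13.1 and 14.7 TPM. PCR11 was at 0 in control 1, where 3 counts would give 0.621 TPM, and at 10.2 and 26.1 TPM in the others. The highest of these was at least 42.1-fold higher than that floor.

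Sugar supply genes were mostly lowest in control 1, as 7 of 9 were, against 39.1% of all loci. SWEET5, a sugar facilitator of the vegetative pollen cell, had 22.1, 177 and 159 TPM, and SUC1, a pollen sucrose importer, 66.2, 294 and 291 TPM. The hexose importer STP9 had 224, 469 and 574 TPM, while STP2, which acts in early pollen, was steady at 205, 235 and 223 TPM. RPG1, also named SWEET8 and needed for exine patterning, had 456, 476 and 344 TPM. Of the 9, 6 were variable, against 9.23% of all loci, 1 without control 1.

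**Figure D2:**
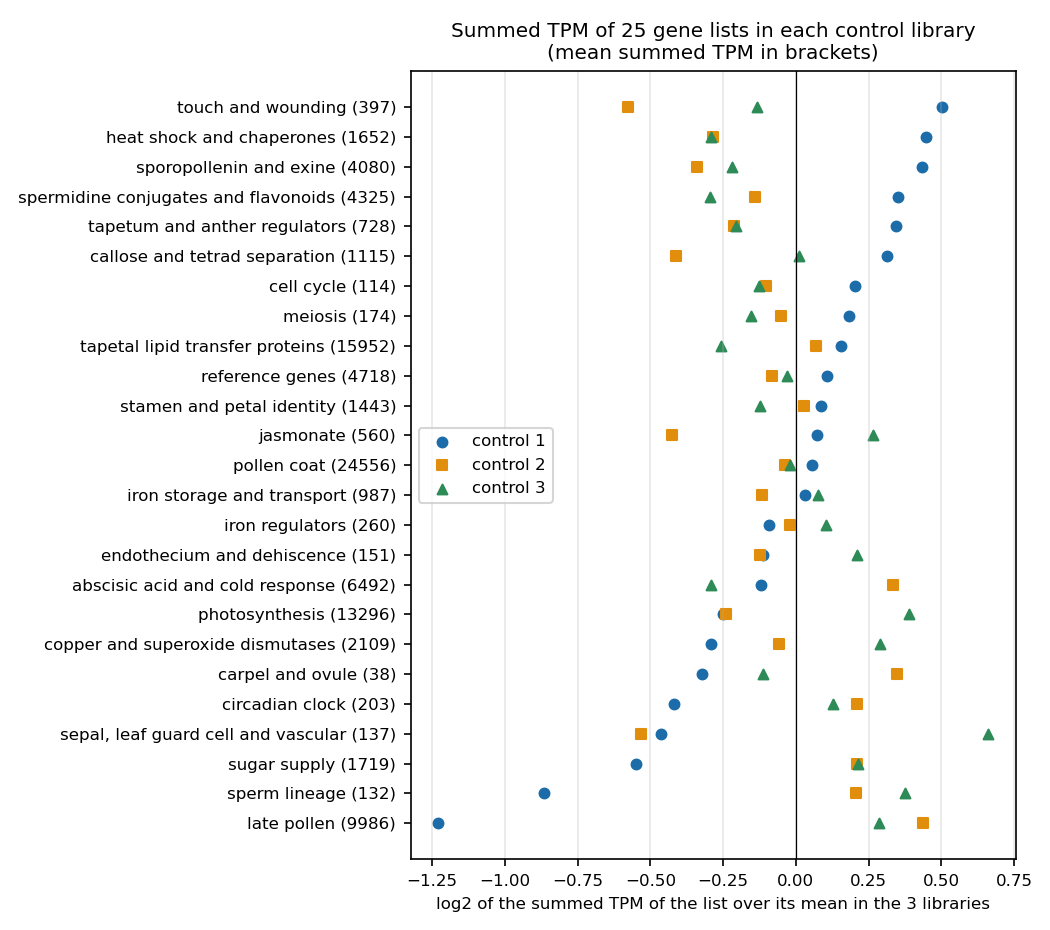
Summed TPM of each of 25 gene lists in each control library, as the log2 of the sum over the mean of the 3 libraries, with that mean in brackets. Late pollen and sperm lineage lists lie far to the left in control 1, tapetal, heat shock and touch lists to the right, and the pollen coat and reference lists close to 0 in all.

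Families of small secreted proteins and wall enzymes, chosen by their RefSeq product names after values had been seen, differed in this. Control 1 was lowest for 23 of 26 cysteine-rich secreted peptides that passed and for 21 of 31 members of the pectin methylesterase and inhibitor family, against 39.1% of all loci. Of RALF peptides it was lowest for 6 of 12 and highest for 4, and of arabinogalactan proteins lowest for 12 of 31, near the share of all loci. The lipid transfer and GDSL lipase families had control 1 as the lowest library for 13 of 39 and 14 of 52, and their sums were highest there. Of 220 loci of cysteine-rich secreted peptides, 26 passed and 23 were variable, against 9.23% of all loci, with sums of 5096, 18141 and 17432 TPM. LCR31 was at 0 in control 1, where 3 counts would give 0.637 TPM, and at 24.6 and 62.6 TPM in controls 2 and 3. In the pectin methylesterase and inhibitor family 22 of 31 were variable, and of RALF peptides 7 of 12, against 9.23% of all loci. Loci such as LCR31 passed through controls 2 and 3 alone, which by itself favours a wide spread. SCRL25, one of the most abundant of these peptides, has an effective length under 50 bases, so its TPM is uncertain.

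A tandem array of DUF1216 genes, a family with no role given in the annotation, was lowest in control 1 as well. All 8 DUF1216 loci that passed were variable and lowest in control 1, and 11 were in the files. Of all loci that passed, 9.23% were variable, 39.1% were lowest in control 1 and 6.04% were both. AT3G28830, at chr3:10831162-10833436, plus strand, had 637, 2117 and 1859 TPM. AT3G28790, at chr3:10813224-10815699, minus strand, had 570.5, 1987 and 1800.1 TPM, and AT3G28780, beside it, 46.4, 331 and 324 TPM. AT3G28820, in the same array, had 1.02, 79.5 and 127 TPM. AT3G28810, also there, was near 0 in controls 1 and 2, with 0.0573, 0.0704 and 23.4 TPM. It passed the filter through control 3 alone and so had to be variable, and the family was chosen after values were seen, so these counts describe it only.

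The 15 loci of at least 20 TPM with the widest spread were all lowest in control 1. Besides VGDH1, PRK2 and the peptides, they include AT5G42170, a GDSL-type esterase, with 0.112, 39.5 and 74.7 TPM, and AT2G31425, a pectin methylesterase inhibitor family protein, with 0.497, 66.5 and 113 TPM. DAF1, an F-box family protein, had 0.503, 28.6 and 67.8 TPM. BCP1, whose Brassica counterpart is a pollen protein, had 0.372, 1.59 and 60.9 TPM, and AT3G26860, of the self-incompatibility protein S1 family, 0.807, 0.864 and 125 TPM. For these last 2, control 3 alone was high. The 15 were picked for their spread, and the filter acted on the mean, so loci almost absent from a library could pass. That by itself favours a wide spread. Control 1 was also the lowest library for 936 of the 1432 variable loci.

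**Figure D3:**
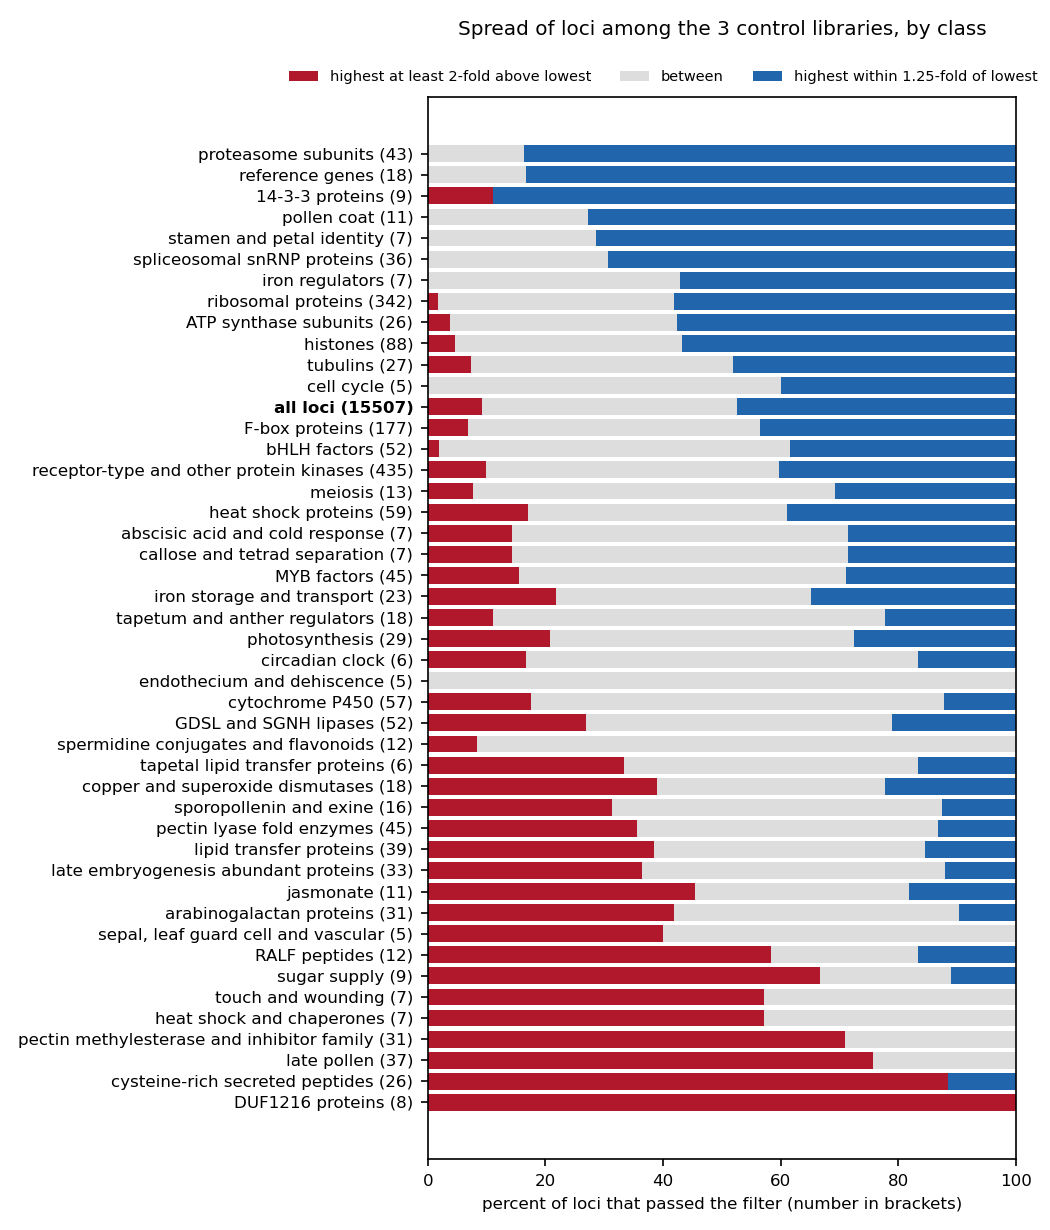
Percent of loci in each class that were variable (ratio of at least 2), steady (highest at most 25% above lowest) or between, among those that passed the filter, whose number is in brackets. Over all loci 9.23% were variable, and the late pollen, secreted peptide and DUF1216 classes lie far above that share while proteasome, reference and pollen coat genes lie below it.

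Reference genes and proteasome subunits were mostly steady. Of 18 genes used as references in quantitative PCR, 15 were steady, against 47.4% of all loci, and 0 variable. PTB1, an RNA-binding protein, averaged 17.9 ± 0.395 TPM, and UBC21, a ubiquitin-conjugating enzyme, had 55.1, 55.7 and 58.5 TPM. The phosphatase subunit PP2AA3 had 44.1, 40.7 and 50.2 TPM, TIP41L 31.0, 33.1 and 35.1 TPM, MON1 29.5, 26.8 and 31.0 TPM, UBC9 157, 142 and 149 TPM, YLS8 170.4, 202 and 177 TPM and RHIP1 48.1, 52.0 and 45.1 TPM. ACT2 was the widest at 1.36-fold, with 66.5, 64.3 and 87.1 TPM, followed by EF1A A2 at 1.32-fold and ACT7 at 1.32-fold. GAPC1, GAPC2, UBQ10 and EF1A A1, A3 and A4 were steady, with means of 411 ± 24.8 TPM, 509.8 ± 27.1 TPM, 661 ± 60.2 TPM, 330.5 ± 40.0 TPM, 479 ± 46.6 TPM and 1017 ± 97.4 TPM. The 4 EF1A genes are near-identical, and Salmon's split of reads between them is uncertain.

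Of proteasome subunits 36 of 43 were steady and 0 variable, of spliceosomal snRNP proteins 25 of 36 and 0, and of ribosomal proteins 199 of 342 and 6. The steady share of ribosomal proteins, 58.2%, was nearer that of all loci, 47.4%, than those of proteasome and snRNP proteins. Ribosomal protein genes together held 8.62 ± 0.552% of the TPM, the largest share of the classes compared. Control 3 was the lowest library for 230 of their 342 passing members, against 22.6% of all loci. The 15 steadiest loci of at least 100 TPM spread by at most 1.03-fold. They include subunits of the mitochondrial ATP synthase, such as ATP3 with 248, 255 and 250.4 TPM and ATPQ with 323, 333 and 330.1 TPM, the translation initiation factor TRIP-1 with 143, 144 and 146 TPM, the poly(A)-binding protein PAB4 with 106, 108 and 106 TPM and the autophagy receptor NBR1 with 136, 136 and 133 TPM. AT2G11910, an uncharacterized protein, had the smallest spread of these, with 138, 139 and 139.5 TPM.

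Photosynthesis genes were abundant and partly highest in control 3. The list summed to 11191, 11264 and 17435 TPM. Of 29 members, 8 were steady (against 47.4% of all loci) and 6 variable (against 9.23%), 1 without control 3, and 22 were highest in control 3 (20 under each of the 4 other scalings), against 46.6% of all loci. Leaving out controls 1, 2 and 3 in turn left 14, 13 and 21 steady members, against 72.2%, 62.5% and 68.9% of all loci. Without control 1 or control 2 this was a smaller share than over all loci, and without control 3 it was near it. The Rubisco small subunit gene RBCS2B had 66.5, 63.2 and 889 TPM, RBCS1B 47.6, 38.7 and 372 TPM and RBCS3B 729, 576 and 2008 TPM. These genes are near-identical and the division of reads between them is uncertain, but their order was the same in each. RCA, which reactivates Rubisco, had 185, 145 and 494 TPM, and PSBR, a photosystem II subunit, averaged 1023 ± 282 TPM. By contrast the light-harvesting proteins LHCB1.3 and LHCB2.1 were steady, with 1624, 1755 and 1709.6 TPM and 68.1, 67.4 and 70.8 TPM.

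Genes of leaf metabolism that were picked because they were high in control 3 extended this group. Carbonic anhydrase CA1 had 26.8, 34.2 and 478 TPM and the photorespiratory glycolate oxidase GOX1 57.7, 49.1 and 185 TPM. TGG1, the myrosinase of guard cells and myrosin cells, had 83.6, 72.3 and 427 TPM, and the metallothionein MT3 507, 517 and 1210.0 TPM. In the same library AP1 and SUC2 were highest, while the guard cell marker KAT1 was highest in control 1, as given above. The summed markers of sepal, guard cell and vasculature were 99.8, 95.1 and 217 TPM over all 8 markers, of which 0 had a mean under 1 TPM. The part of other organs in these values was not tested.

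Jasmonate genes held both orders. MYB21, a MYB factor of late stamen growth, had 0.0589, 4.48 and 21.6 TPM, and MYB24, its partner, 0, 0.14 and 5.58 TPM. LOX2, a plastid lipoxygenase, had 97.5, 75.7 and 197 TPM, highest in control 3, whereas AOC3, an allene oxide cyclase, had 25.1, 11.3 and 8.57 TPM, highest in control 1. OPR3, the reductase needed for jasmonate in anthers, was steady at 25.1, 24.2 and 28.9 TPM, and JAR1, which forms the active conjugate, averaged 192 ± 47.1 TPM. DAD1, the phospholipase of filaments, was under 0.1 TPM in each library. Of endothecium genes, MYB26, which starts secondary thickening of the anther wall, had 69.6, 53.0 and 55.8 TPM, and ARF6, an auxin response factor of stamen growth, 20.2, 26.6 and 40.0 TPM.

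Heat shock, touch and clock genes also differed between libraries. All 7 genes of the heat shock and chaperone list that passed were highest in control 1, against 32% of all loci. Of these 4 were variable, against 9.23%, 0 without control 1 and 2 without control 3. HSFA2, a heat-induced transcription factor, had 19.1, 1.04 and 0.704 TPM, and MBF1C, a heat-responsive coactivator, 123, 32.4 and 28.7 TPM. The cytosolic chaperone HSC70-1 had 1039, 699 and 694 TPM and BIP2, its counterpart of the endoplasmic reticulum, 532, 323 and 320.2 TPM. The small heat shock proteins HSP21, HSP17.6A and HSP22 did not pass the filter, with means under 2 TPM. In the broader class of loci with heat shock protein names, 10 of 59 were variable, against 9.23% of all loci. Control 1 was highest for 32 of these 59, against 32% of all loci.

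The 7 touch and wounding genes were likewise highest in control 1, against 32% of all loci. TCH2, a touch-induced calmodulin-like protein, had 259, 129.6 and 133 TPM, and ZAT12, a stress zinc finger protein, 85.1, 41.5 and 36.7 TPM. TCH3 and TCH4 were high in controls 1 and 3, with 49.5, 19.3 and 48.9 TPM and 111, 44.7 and 105 TPM. Of the touch and wounding genes 4 were variable, against 9.23% of all loci, 2 without control 1 and 1 without control 2. The 6 clock genes that passed were all lowest in control 1, against 39.1% of all loci, with ELF4 at 62.8, 109 and 97.5 TPM and PRR5 at 5.69, 15.1 and 13.7 TPM, and TOC1 steady at 46.0, 56.1 and 56.8 TPM. RD29A, a cold- and drought-induced gene, had 3.48, 45.2 and 27.2 TPM, while KIN1 was steady at 1128, 1068 and 999 TPM. Phosphate-response genes, a list put together after values were seen, had 5 variable members of 9, against 9.23% of all loci. PAP14, an acid phosphatase, had 53.2, 136 and 53.3 TPM and SPX3, a phosphate sensor protein, 11.3, 27.6 and 10.8 TPM, both highest in control 2, while MGD2, a galactolipid synthase, had 8.32, 59.2 and 40.4 TPM.

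Iron genes held both steady and variable members. FER1, a ferritin, an iron storage protein of plastids, had 354, 336 and 333 TPM, at chr5:227953-230051, minus strand. FER3 had 129, 83.2 and 92.2 TPM and FER2 48.7, 68.8 and 64.6 TPM. Of iron regulators, ILR3, a bHLH factor of the iron response, had 86.7, 79.5 and 78.0 TPM. Of the 7 that passed 0 were variable, near the 9.23% of all loci. The iron deficiency factors bHLH38 and bHLH39 were at or near 0, with 0.073, 0 and 0.0644 TPM and 0, 0 and 0 TPM, and bHLH100 had 3.08, 2.63 and 3.03 TPM. IRT1, the root iron importer, was read at 24.3, 19.6 and 20.3 TPM. In the storage and transport list 8 of 23 were steady (34.8%, below the 47.4% of all loci) and 5 variable (against 9.23%), 1 without control 3 and 3 without control 2. The steady members numbered 14, 12 and 15 without controls 1, 2 and 3, against 72.2%, 62.5% and 68.9% of all loci. Each was a smaller share than over all loci. FRO6, a ferric reductase of green tissue, had 5.90, 6.41 and 30.2 TPM, and YSL2, a transporter of metal-nicotianamine complexes, 6.66, 12.4 and 20.4 TPM. The nicotianamine synthase gene NAS1 was at 0 counts in all 3 libraries.

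Some copper genes stood in opposed orders among the libraries. Plants adjust copper use through SPL7, a transcription factor known to bind GTAC sequences, which under low copper raises copper importers, the iron superoxide dismutase FSD1 and the microRNAs miR398 and miR408. The microRNAs in turn lower transcripts of copper proteins, among them the copper/zinc superoxide dismutases CSD1 and CSD2, their chaperone CCS and blue copper proteins. The mature microRNAs are shown because their pairing sites in the described targets follow. Capitals mark the seed, bases 2 to 8, and the sequences were read from TAIR10.1 at chr5:4694778-4694798 and chr2:19319933-19319953, both on the plus strand.
miR398c-3p: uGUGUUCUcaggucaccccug
miR408-3p: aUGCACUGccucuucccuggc

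FSD1, at chr4:12884300-12887011, minus strand, had 52.9, 165 and 493 TPM. CCH, a copper chaperone, had 147, 454 and 747 TPM, and the copper importer COPT2 5.88, 23.0 and 41.4 TPM. COPT1, another importer, averaged 93.4 ± 39.9 TPM. The hairpin of miR398c lies at chr5:4694694-4694808, plus strand. Over transcript models longer than the hairpins, the precursor of miR398c had 2.49, 13.8 and 32.9 TPM and that of miR408 0.825, 8.31 and 20.4 TPM. All of these were lowest in control 1 and highest in control 3. The precursors of miR398a, miR398b and miR397b had 0 counts in each library, on short models with effective lengths under 5 bases, and MIR397a had a total of 8 counts.

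CSD1 stood in the reverse order, with 479, 273 and 135 TPM, CSD2 with 212, 116 and 68.8 TPM and CCS with 63.7, 39.5 and 28.3 TPM. The blue copper proteins AT1G72230 and UCC2 had 186, 102 and 69.7 TPM and 29.3, 12.5 and 10.2 TPM, and plantacyanin (ARPN), which did not pass the filter, 5.38, 3.16 and 2.51 TPM. SPL7 itself was steady at 30.7, 29.2 and 29.7 TPM, as were the manganese superoxide dismutase MSD1 at 181, 182 and 192 TPM and COPT5, a vacuolar copper exporter, at 126, 129 and 144 TPM. LAC4 and LAC17, laccases of lignin formation, had 56.6, 91.9 and 111 TPM and 39.3, 64.9 and 104 TPM, the order of FSD1. Of the 18 members of the copper list that passed, 7 were variable, against 9.23% of all loci, 2 without control 1 and 4 without control 3. Steady members numbered 4, against 47.4% of all loci. Control 1 was lowest for 11 of the 18, against 39.1% of all loci, and for 7 to 9 under the other scalings. Control 3 was highest for 13, against 46.6% of all loci, and for 11 to 12 under the other scalings. The microRNA loci and blue copper proteins were added after values were seen. MIR408 and CSD1 overlap annotated genes on the other strand, AT2G47020 with 9.22, 10.5 and 9.96 TPM and AT1G08840 with 5.04, 4.23 and 4.67 TPM, and the strand of the reads is not given, so reads of such partners cannot be told apart. For MIR398c and MIR408 overlaps were read from the short RefSeq entries, so partners of the longer models may be missed.

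**Figure D4:**
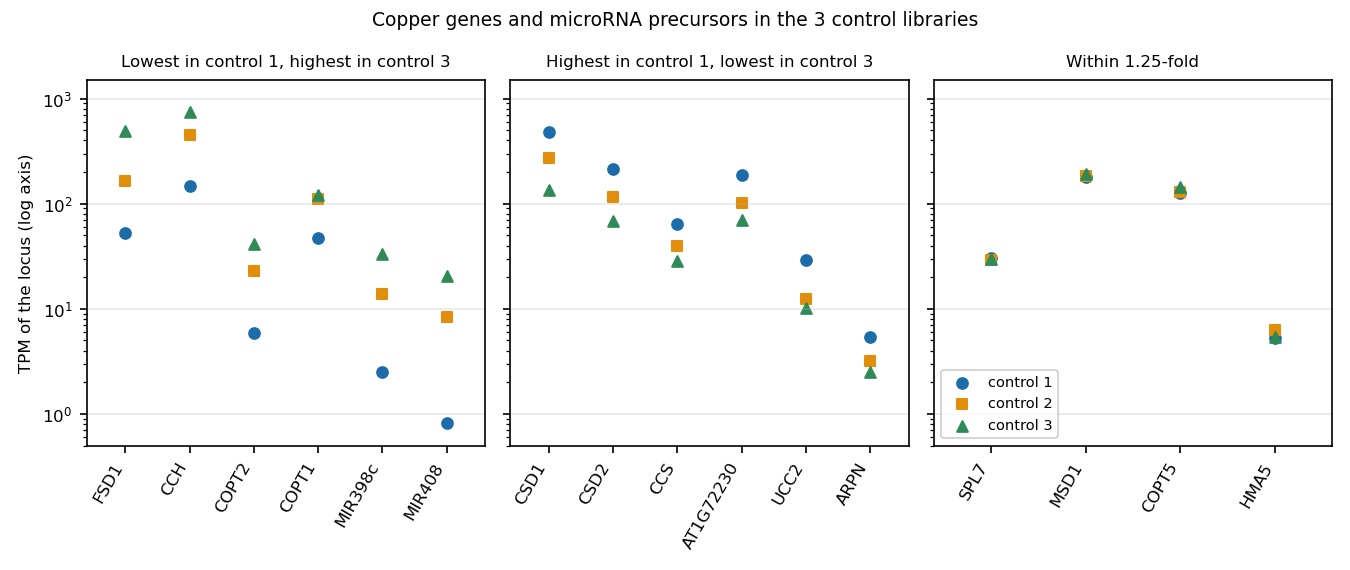
TPM (log axis) of copper genes and microRNA precursors in each control library, 1 marker per library. Loci were placed in panels by their order or spread, so the pattern of each panel follows from that choice. The left panel holds loci lowest in control 1 and highest in control 3, such as FSD1 with 52.9, 165 and 493 TPM. The middle panel holds loci in the reverse order. In the right panel SPL7, MSD1, COPT5 and HMA5 each have their 3 values at most 25% apart.

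The best ungapped match to each microRNA in the annotated transcripts of 3 described genes is shown as DNA of the transcript strand, with capitals for bases that pair with the microRNA by Watson-Crick rules. In CSD1 it lies in the 5′ UTR across the junction of exons 1 and 2, within chr1:2827177-2827685 on the plus strand, with 17 pairs and 4 mismatches. In ARPN it lies in the coding part of exon 1, at chr2:827696-827716 on the minus strand, with 19 pairs and 2 mismatches, and in UCC2 in the 3′ UTR, in exon 2, at chr2:18462149-18462169 on the minus strand, with 17 pairs and 4 mismatches.
CSD1: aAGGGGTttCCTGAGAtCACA
ARPN: cCaAGGGAAGAGGCAGTGCAT
UCC2: GCCAGGGtgGAGtCAGTGCtT

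For CSD2 and CCS the best ungapped windows had 8 and 6 mismatches, and for AT1G72230 5. A match is a description of sequence, not a measured site of cleavage.

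The 250 bases before the annotated start of MIR398c, MIR408 and FSD1 are shown, 5′ to 3′ on the strand of the gene, with the letters GTAC, which read the same on both strands, in capitals. The windows are chr5:4694444-4694693 (plus strand) for MIR398c, chr2:19319564-19319813 (plus strand) for MIR408 and chr4:12887012-12887261 (minus strand) for FSD1. The RefSeq entries of the 2 microRNA loci are hairpins, shorter than the transcript models of 1941 and 1247 bases in the files, so their windows may lie partly inside those models.
MIR398c: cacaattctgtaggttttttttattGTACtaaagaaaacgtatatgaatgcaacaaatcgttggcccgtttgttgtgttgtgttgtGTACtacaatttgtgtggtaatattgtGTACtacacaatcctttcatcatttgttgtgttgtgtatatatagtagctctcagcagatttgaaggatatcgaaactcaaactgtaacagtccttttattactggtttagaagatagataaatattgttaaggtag
MIR408: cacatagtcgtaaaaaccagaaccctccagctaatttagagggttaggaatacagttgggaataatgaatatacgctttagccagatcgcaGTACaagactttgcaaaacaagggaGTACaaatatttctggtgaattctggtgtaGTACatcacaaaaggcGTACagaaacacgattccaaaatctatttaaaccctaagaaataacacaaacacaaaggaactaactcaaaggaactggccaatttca
FSD1: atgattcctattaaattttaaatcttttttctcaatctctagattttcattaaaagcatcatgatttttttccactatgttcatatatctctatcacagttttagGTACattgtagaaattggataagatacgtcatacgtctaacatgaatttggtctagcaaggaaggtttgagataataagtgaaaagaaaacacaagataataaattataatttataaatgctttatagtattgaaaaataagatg

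MIR398c held 3 copies of GTAC, MIR408 4 and FSD1 1. YSL2 also held 3, CSD1 2 that lie side by side, CCH and CCS 1 each, and COPT1, COPT2 and CSD2 none. Among 27443 windows of the same length before nuclear protein-coding genes, 34.3% held at least 1 copy, 1.44% at least 3 and 0.266% at least 4. The MIR398c and MIR408 windows stand before hairpin entries, so these shares are not a like measure for them. These are counts of letters, and whether SPL7 had a part in the values was not tested.

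Transcript use was steady at most loci. Of 4714 loci with 2 or more transcripts in the files that passed the filter, the dominant transcript, the one of highest mean TPM, held a median of 91.6% of the locus and at least 90% at 2514 loci. It was the transcript numbered 1 at 3364 loci and another at 1350 (28.6%). The transcript of highest TPM was not the same in all libraries at 375 loci (7.96%). Without control 2 these numbered 244.

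Among abundant loci led by another transcript than number 1, SAMDC, the decarboxylase that supplies polyamine synthesis, had 99.8%, 99.7% and 99.8% of its TPM in transcript 3. The mitochondrial ADP/ATP carrier AAC1 had 98.1%, 95.2% and 94.8% in transcript 2, and the ribosomal stalk protein AT1G01100 97.0%, 97.1% and 97.8% in transcript 2. ERD15, a drought-response protein, had 89.1%, 92.0% and 91.4% in transcript 2. These were near-complete in every library. Other loci were mixed: GRP14 had 52.1%, 67.5% and 64.2% in transcript 2 and most of the rest in transcript 1, COR15A, a chloroplast cold protein, 88.5%, 77.0% and 76.4% in transcript 2, UBC10 60.8%, 67.1% and 62.2% in transcript 4 and EF1A A4 64.8%, 70.6% and 64.9% in transcript 3. UBQ10, a polyubiquitin whose repeated units differ in number between models, had 43.1%, 31.1% and 36.6% in transcript 3 and 32.1%, 28.7% and 33.6% in transcript 6. AT1G23570, a DUF220 protein, had 58.7%, 60.5% and 46.4% in transcript 3.

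At other loci the leading transcript differed among libraries. AT1G56220, a dormancy and auxin associated family protein, had 48.7%, 49.7% and 46.9% in transcript 1 and 47.1%, 45.7% and 49.6% in transcript 3. APX1, the cytosolic ascorbate peroxidase, a haem enzyme, had 55.6%, 39.4% and 57.9% in transcript 1 and 42.9%, 58.4% and 39.9% in transcript 3, with transcript 3 ahead in control 2. GLX1, a glyoxalase, had 40.7%, 48.5% and 31.5% in transcript 3 and 36.6%, 31.0% and 40.0% in transcript 1. FAD2, the oleate desaturase of the endoplasmic reticulum, had 67.9%, 67.5% and 49.8% in transcript 1, with transcript 2 ahead by a small margin in control 3. RCA, whose splicing gives long and short proteins, had 53.4%, 46.8% and 53.5% in transcript 1 and 44.3%, 50.8% and 43.6% in transcript 2.

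The rest of the 10 most abundant loci of this kind were AT5G14030, a translocon-associated protein, with 60.7%, 71.2% and 44.4% in transcript 1, DJ1A, a glyoxalase-type protein, with 61.5%, 43.9% and 60.8% in transcript 1, TIM17-2, a mitochondrial import protein, with 60.1%, 48.0% and 72.2% in transcript 2, AT4G33150, of lysine breakdown, with 52.2%, 48.1% and 53.1% in transcript 2, and AT4G11380, an adaptin, with 43.2%, 45.5% and 58.1% in transcript 2. Larger swings were found at lower levels and were picked after values were seen. COR27, a cold and clock gene, had 76.3%, 11.5% and 79.9% of its TPM in transcript 1, and RABC2b, a small GTPase, 77.7%, 0% and 81.0% in transcript 3. Salmon estimates the division of reads between transcripts that share most of their sequence, so such shares carry more error than the sum of the locus.

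**Figure D5:**
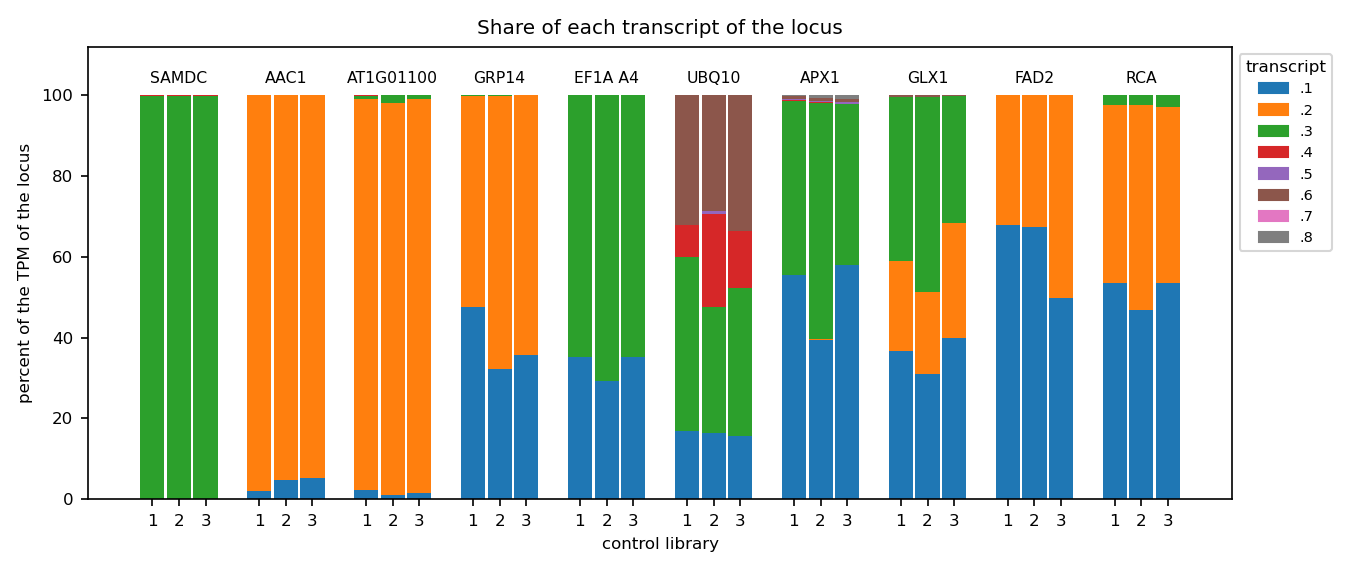
Share of each transcript in the TPM of 10 loci in each control library, as stacked bars from 0 to 100%. SAMDC, AAC1 and AT1G01100 are nearly filled by 1 transcript that is not number 1, and for APX1, GLX1, FAD2 and RCA the largest share changes between libraries.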

How the data were processed

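Whole anthers of Col-0 plants were sequenced single-end on an Illumina MiSeq from TruSeq v2 libraries, per the labels' protocols. Tools listed per the submitters' processing notes were Trimmomatic 0.35 and Salmon 0.12.0, with build TAIR10. Each library came as 1 table in Salmon's format, per the file headers. Estimated counts, TPM and effective lengths for every transcript were taken as the authors deposited them. Whether reads were counted by strand is not stated. Depth was 17474137 to 22710901 estimated counts per library; 100 counts carry a counting error of about 10%. No pair of libraries was identical, and none was merged.

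The 41086 transcripts were collapsed to 33027 loci by adding their TPM and their estimated counts. Names, coordinates and sequences came from RefSeq TAIR10.1, which holds 32341 of these loci; coordinates are 1-based. Spread, class sums and dominant transcripts were computed from TPM with no group test, and the spread rule was tested on simulated data. Loci were named by rank: the 30 most abundant, the 4 highest, 2 widest and 1 steadiest of each of 25 lists, the 15 widest, the 15 steadiest, 10 loci for each transcript rule and all reference genes. The gene lists and their members were chosen with earlier results of these data known, so their counts are descriptions only. Loci outside the rule, classes by product name and lists said to be added were chosen after values were seen. A value of 0 was given a floor of 3 counts, which covers counting error only. Alternatives used edgeR 4.0.16 TMM factors, DESeq2 1.42.0 size factors (on counts rounded to whole numbers), TPM without ribosomal RNA loci, other filters, 1 TPM added and each library left out. R 4.3.3, Python 3.11.15, pandas 2.3.3 and matplotlib 3.10.9 were used.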

Additional observations from a re-analysis of the deposited data

How the results depend on the processing

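No paired analysis was possible because only 1 group was described and no result came from a test. The share of TPM in the 10 most abundant loci, 10.3% on average, was 6.45% without ribosomal RNA loci, 5.52% without loci of effective length under 50 (an alternative chosen after seeing the data) and 4.12% of counts with either TMM or DESeq2 factors. The 1432 variable loci became 2813 with a filter of 1 TPM and 20 counts, 5035 with no filter and 719 at 20 TPM, and the 7346 steady loci 4303 at 20 TPM; these filters test more or fewer loci. At 20 TPM the dominant transcript differed at 183 loci and was not number 1 at 780.

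Leaving out 1 library at a time gave 451 to 1149 variable and 9691 to 11195 steady loci, fewer libraries giving smaller ratios by construction. The share in the 10 most abundant loci was then 8.31% to 11.9%, and loci of at least 1 TPM numbered 20462 to 20888. The dominant transcript differed at 244 to 257 loci and was not number 1 at 1337 to 1359. Variable members numbered 3 to 26 in the late pollen list, 0 to 5 in the sporopollenin list, 1 to 6 in the photosynthesis list and 2 to 7 in the copper list, and steady members 8 to 10 in the pollen coat list and 16 to 17 among reference genes.

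Under the 4 other scalings, 1358 to 1381 loci were variable and 7200 to 7495 steady, and the median locus moved by less than 0.1 on the log2 scale in each library. Steady reference genes then numbered 12 to 13, against 15 in TPM, and steady pollen coat members 7, against 8. Variable sporopollenin members numbered 4 to 7, against 5, and those of the late pollen, photosynthesis and copper lists did not change. DESeq2 size factors give no TPM, so no count of loci at 1 TPM was computed with them. Depth limits loci under about 100 counts, and the filter left out those with a mean under that. It did not act on each library, so depth also limits the ratios of passing loci near 0 in a library. LCR31 and LCR72, at 0 in control 1, have no ratio and were not recomputed. The classes by product name and the added lists were not recomputed with a library left out.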
